A study of Mus musculus with 9 samples.

Results

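The right ventricles of mice given monocrotaline (MCT) were compared with those of sham mice. Both groups were fed the standard diet, and they make up 6 of the 9 mice of the series: MCT mice 640, 641 and 644 and sham mice 620, 624 and 625. Each mouse was assigned to its group by label, with no use of a measured value. All were female C57BL/6 mice that arrived at 8 weeks of age. From 10 weeks of age MCT mice received 600 mg/kg MCT under the skin each week for 8 weeks, and sham mice received saline over the same time. The diet of both groups was AIN-93M, a semi-synthetic rodent diet. Another 3 mice (615, 617 and 619) received MCT with a nutritional intervention (MCT + NI), and they entered the estimate of spread and the choice of probe set but not the difference between MCT and sham mice. The measurement was 1 expression array of total RNA per mouse, so all cell types of the ventricle were pooled. According to the methods the mice for the arrays were matched for disease severity. MCT is a plant alkaloid that is activated in the liver and injures vessels downstream, so the model reaches the whole body and an effect of pressure load on the ventricle cannot be told apart from an effect of the drug on its cells.

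The right ventricle is built from cardiomyocytes and a dense capillary bed, with pericytes on the capillaries, fibroblasts between the fibres and resident macrophages. Growing vessels are led by tip cells, endothelial cells with their own set of genes that includes the peptide apelin. The reactive pyrroles made from MCT crosslink DNA, and p53 is the transcription factor that answers DNA damage by switching on inhibitors of the cell cycle such as Cdkn1a. Both p53 and the resting state hold genes of cell division down, in part through short elements near their start sites.

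Values are log2 intensities as deposited, and 1 unit is a factor of 2. They are given for the mice in the order sham 620, 624 and 625 and MCT 640, 641 and 644. A gene is called higher or lower when its adjusted p in limma (Benjamini-Hochberg over 18820 genes, two-sided) is under 0.05, and levels of different genes are not compared because probes differ in brightness. Of all genes, 1179 (6.26%) were called, 876 (4.65%) higher and 303 (1.61%) lower in MCT mice. When each array's median was set to 0 the split was 759 higher and 711 lower, and the share of calls that were higher fell from 74.3% to 51.6%. This setting moved the median of all genes from -0.02 to -0.08. Among the called genes rises were larger than falls: 169 were over 2-fold higher and 14 over 2-fold lower, and 18 and 3 passed 4-fold. Genes whose 3 MCT mice all lay above the 3 sham mice made up 11.7% of all genes, and those with all MCT mice below made up 10.2%.

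Ventricular markers were present in all 6 mice at like levels. The ventricular light chain Myl2 measured 12.73, 12.73 and 12.67 in the sham mice and 12.75, 12.73 and 12.70 in the MCT mice, and cardiac troponin Tnnt2 measured 13.08, 13.11 and 13.07 in the sham mice and 13.07, 13.03 and 13.07 in the MCT mice. Neither was called (adjusted p = 0.813 and 0.531). Of 13 ventricular cardiomyocyte markers 1 was called, the calcium release channel Ryr2, which fell by 0.17 on the log2 scale. Atrial markers, in contrast, separated the mice in a way that the groups do not. The atrial light chain Myl7 measured 10.55, 11.77 and 11.57 in the sham mice and 3.07, 3.66 and 11.40 in the MCT mice. MCT mice 640 and 641 were therefore far below the sham mice, and MCT mouse 644 lay in the range of the sham mice. The mean log2 intensity of 11 atrial markers, called the atrial score below, was 8.76, 9.42 and 9.29 in the sham mice and 5.73, 5.93 and 9.11 in the MCT mice. Calls of named genes that were lost with this score as a covariate are given paragraph by paragraph, as lost with the score. Because the score was low in 2 of the 3 MCT mice, using it as a covariate also takes up part of any difference between the groups. A call can also be lost through a larger standard error, without a smaller difference. Ryr2 was lost with the score.

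The 25 largest rises, among genes that passed the test with no overlap of the groups, predicted genes and clones left out, reached from 1.78 to 4.39 on the log2 scale. Prnd had the largest rise. It encodes doppel, a relative of the prion protein that sits on the cell surface and is known from endothelium. Its log2 intensity was 5.50, 5.34 and 5.61 in the sham mice and 9.99, 10.07 and 9.57 in the MCT mice, a 21.0-fold rise (standard error on the log2 scale 0.14, adjusted p = 2.73e-06). The prion protein gene Prnp itself rose by 0.24. Apln, the apelin peptide of tip cells, measured 6.28, 6.56 and 6.73 in the sham mice and 10.31, 10.44 and 9.90 in the MCT mice. It rose 12.9-fold (standard error 0.15, adjusted p = 7.08e-06), and its receptor Aplnr rose 1.64-fold (adjusted p = 0.0245). In both Prnd and Apln, MCT mouse 644 was the lowest of the 3 MCT mice, and it still lay 3.97 and 3.17 units above the highest sham mouse. The calls of Aplnr (adjusted p = 0.18) and Prnp were lost with the score.

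**Figure D1:**
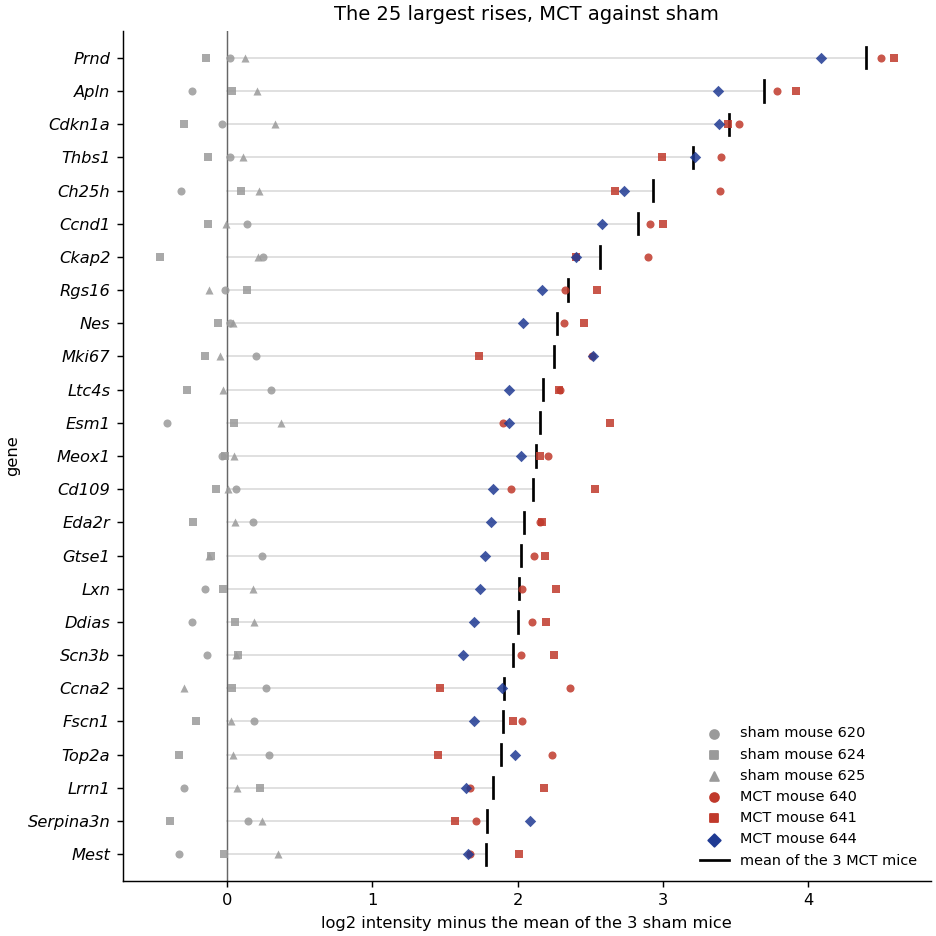
The 25 largest rises in MCT against sham mice, by gene. Each point is 1 mouse, on the horizontal axis as log2 intensity minus the mean of the 3 sham mice, and the black bar is the mean of the 3 MCT mice. All 3 MCT mice lie to the right of all sham mice in each gene, which the choice of genes fixes, and mouse 644 is the MCT mouse nearest to the sham mice in 17 of the 25.

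Other genes of tip cells and of vessel growth rose with apelin. Esm1, a proteoglycan secreted by tip cells, measured 3.68, 4.15 and 4.47 in the sham mice and 6.00, 6.73 and 6.04 in the MCT mice and rose 4.46-fold (adjusted p = 0.00186). Angpt2, the angiopoietin that loosens vessel walls, measured 5.57, 5.71 and 5.61 in the sham mice and 7.15, 6.79 and 6.75 in the MCT mice and rose 2.41-fold (adjusted p = 0.000259). The groups did not overlap in either gene, which for Esm1 the choice of the largest rises fixes. Of 14 measured tip cell genes 12 were higher, 0 were lower, and their median log2 fold change was 1.18 against -0.02 over all genes. This list, like the others, was written with earlier results of these data known, and it holds Apln, Esm1 and Angpt2 themselves. In these bulk samples more or fewer cells of a type and more or less RNA per cell cannot be told apart. Beside Apln, Esm1 and Angpt2 the tip cell genes called higher included the adhesion molecule Mcam (2.65-fold) and the basement membrane collagens Col4a1 (3.43-fold) and Col4a2 (3.06-fold). They also included the growth factor Pgf (2.12-fold), the potassium channel subunit Kcne3 (2.59-fold) and the urokinase receptor Plaur (1.89-fold). The Notch ligand Dll4, also of this list, was not called. With the atrial score as a covariate 7 of the 14 passed, and without MCT mouse 644 12 did. Nes, the intermediate filament nestin of growing endothelial and neural cells, measured 5.84, 5.75 and 5.86 in the sham mice and 8.14, 8.27 and 7.85 in the MCT mice, a 4.83-fold rise (adjusted p = 1.45e-05). Fscn1, which bundles actin in cell protrusions, measured 7.24, 6.84 and 7.08 in the sham mice and 9.08, 9.02 and 8.75 in the MCT mice and rose 3.73-fold (adjusted p = 0.000132). Mouse 644 was again the lowest MCT mouse in both, and it lay 2.00 and 1.51 units above the sham mice. Pgf, Kcne3 and Plaur were among those lost with the score.

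The receptors of the same pathway moved unequally. Among 15 genes of VEGF and angiopoietin signalling 5 rose and 1 fell. The neuropilin Nrp2, a co-receptor, rose 2.29-fold (adjusted p = 0.000262), and the lymphatic VEGF receptor Flt4 rose 1.43-fold. Flt1, the VEGF receptor that also acts as a trap for its ligands, measured 8.62, 8.69 and 8.67 in the sham mice and 7.92, 7.86 and 8.08 in the MCT mice and fell to a level 1.64-fold lower (adjusted p = 0.000822). Kdr, the main signalling receptor, was 1.36-fold its sham level and was not called (adjusted p = 0.0564). Of 15 Notch genes 4 rose, among them the endothelial receptor Notch4 (1.71-fold) and the feedback inhibitor Nrarp (1.71-fold). Flt4 was lost with the score, which left 2 of the 15 VEGF and angiopoietin genes higher and 1 lower, and 2 of the 15 Notch genes higher. Without MCT mouse 640 the Notch count was also 2.

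Of 16 general endothelial markers 7 rose and 0 fell, with a median of 0.41. In 9 of the 16 the 3 MCT mice were above the 3 sham mice, and in 3 they were below. Over all genes the shares were 11.7% and 10.2%. Without MCT mouse 644, 8 of the 16 were called higher and 1 lower. Icam2, an adhesion molecule of endothelium, measured 6.96, 6.96 and 7.10 in the sham mice and 8.03, 7.93 and 7.85 in the MCT mice and rose 1.90-fold (adjusted p = 0.000103). The guidance receptor Robo4 rose 2.16-fold, the transcription factor Erg 1.72-fold, the cadherin Cdh5 1.67-fold and the junction molecule Pecam1 1.61-fold. Von Willebrand factor Vwf, in contrast, measured 7.69, 7.81 and 8.48 in the sham mice and 6.95, 7.25 and 7.76 in the MCT mice, with a log2 fold change of -0.67 that was not called (adjusted p = 0.191). Pericyte genes rose as well: 8 of 11 passed as higher and 0 as lower, with a median of 0.68. The adhesive protein Vtn led them at 2.62-fold, followed in p by the proteoglycan Cspg4 at 1.75-fold and the growth factor receptor Pdgfrb at 1.39-fold. With the atrial score as a covariate 3 of the 11 pericyte genes and 6 of the 16 endothelial genes passed.

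Genes that p53 is known to switch on made up another group. Cdkn1a, the cyclin kinase inhibitor p21, measured 5.96, 5.71 and 6.33 in the sham mice and 9.53, 9.45 and 9.39 in the MCT mice, an 11-fold rise (standard error 0.14, adjusted p = 7.08e-06). The 3 MCT mice lay within 0.14 units of each other, and the lowest was 3.06 units above the highest sham mouse. Eda2r, a receptor of the tumour necrosis factor family, measured 5.15, 4.74 and 5.03 in the sham mice and 7.12, 7.14 and 6.78 in the MCT mice and rose 4.13-fold. Gtse1, a microtubule-binding protein of dividing cells, measured 4.06, 3.71 and 3.69 in the sham mice and 5.93, 6.01 and 5.60 in the MCT mice and rose 4.07-fold. Ckap2, a protein of the mitotic spindle, measured 3.52, 2.81 and 3.48 in the sham mice and 6.17, 5.67 and 5.67 in the MCT mice and rose 5.92-fold (adjusted p = 0.000734). No sham mouse was as high as an MCT mouse in these genes, which the choice of the largest rises fixes. Of 28 p53 targets measured 16 rose and 0 fell, with a median of 0.55, and with the atrial score as a covariate 12 passed. Cdkn1a, Eda2r, Gtse1 and Ckap2 are among the 28. Further members were the Akt inhibitor Phlda3 (2.94-fold), the RNA-binding protein Zmat3 (3.39-fold), the stress sensor Sesn2 (2.80-fold), the death receptor Tnfrsf10b (2.35-fold), the lesion-bypass polymerase Polk (1.92-fold) and the p53 ligase Mdm2 (1.22-fold). Ccng1, a cyclin often used as a p53 target, had a log2 fold change of 0.01 and the death receptor Fas one of 0.07, and neither was called. Ddias, named as a suppressor of the apoptosis that DNA damage induces, rose 4.0-fold. Of 18 Fanconi crosslink repair genes 1 rose, the helicase Brip1 (2.08-fold), with a list median of 0.02. Tnfrsf10b, Mdm2 and Brip1 were lost with the score.

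The start sites of p53 targets and of mitosis genes were read for known elements. They are printed because both groups moved together, and the letters describe the windows and say nothing about binding in these mice. Windows ran from 250 bases before to 50 bases after a RefSeq start site (build GRCm38.p6), both strands were searched, and a gene with several windows was represented by the first. The p53 half-site was present in 7.23% of 14749 windows and in 8 of 21 windows of p53 targets. TTTGAA, the core of the cell cycle genes homology region (CHR), was present in 15.1% of all windows and in 12 of 15 mitosis windows. CCAAT was present in 38.3% of all windows and in 14 of 15 mitosis windows. Both lists were drawn up from known regulation, so these shares describe the lists. Stretches of 5 windows follow, 5′ to 3′ on the gene's strand. Capitals mark the p53 half-site in the first pair and TTTGAA or CCAAT, on either strand, in the others.
Cdkn1a, chr17:29090889-29090968, plus strand: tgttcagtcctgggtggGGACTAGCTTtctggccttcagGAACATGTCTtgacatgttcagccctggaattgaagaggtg
Ckap2, chr8:22185960-22186039, minus strand: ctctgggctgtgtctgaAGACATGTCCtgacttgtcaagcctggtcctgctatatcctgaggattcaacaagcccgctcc
Mki67, chr7:135716460-135716579, minus strand: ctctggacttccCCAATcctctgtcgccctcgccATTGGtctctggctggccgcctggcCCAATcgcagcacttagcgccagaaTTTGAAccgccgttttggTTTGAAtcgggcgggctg
Ccnb2, chr9:70421535-70421654, minus strand: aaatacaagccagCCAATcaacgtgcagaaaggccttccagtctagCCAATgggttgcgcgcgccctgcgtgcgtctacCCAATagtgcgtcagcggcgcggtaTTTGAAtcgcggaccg
Cdk1, chr10:69352903-69353002, minus strand: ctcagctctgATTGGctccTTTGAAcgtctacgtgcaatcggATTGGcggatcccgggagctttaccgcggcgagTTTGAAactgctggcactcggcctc
The matches of Cdkn1a begin 73 and 51 bases before the start site, and that of Ckap2 203 bases before it. Mki67 carries 3 CCAAT and 2 TTTGAA matches in the stretch shown. In the stretches shown Ccnb2 carries 3 CCAAT matches and, just after its start, 1 TTTGAA, and Cdk1 carries 2 of each. Over the whole windows Ccnb2 has 2 TTTGAA and Cdk1 3 CCAAT matches. The window of Ckap2 also holds 1 TTTGAA and 1 CCAAT match outside its stretch.

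Genes of division rose beside the inhibitor Cdkn1a. Of 18 mitosis genes 13 rose and 0 fell, with a median of 1.26, and in 16 of them the 3 MCT mice were above the 3 sham mice, where 11.7% of all genes were. Mki67, the proliferation marker Ki-67, measured 4.65, 4.29 and 4.40 in the sham mice and 6.96, 6.18 and 6.96 in the MCT mice and rose 4.76-fold (adjusted p = 0.00379). Ccna2, the cyclin of S phase and G2, measured 4.20, 3.96 and 3.63 in the sham mice and 6.29, 5.40 and 5.83 in the MCT mice and rose 3.75-fold (adjusted p = 0.00661). In both, MCT mouse 641 was the lowest of the MCT mice, as it was in 14 of the 18 mitosis genes, and it still lay 1.53 and 1.20 units above the highest sham mouse. Spindle and checkpoint genes followed, among them Tpx2 (2.59-fold), the kinases Plk1 (2.41-fold) and Ttk (1.99-fold), Prc1 (2.72-fold), cyclin Ccnb2 (2.63-fold) and Cdk1 (1.86-fold). Top2a, the topoisomerase that untangles chromosomes, measured 4.58, 3.97 and 4.34 in the sham mice and 6.53, 5.74 and 6.28 in the MCT mice and rose 3.70-fold (adjusted p = 0.00165). It has 3 probe sets, and this holds for the brightest, since the other two had log2 fold changes of 0.27 and -0.12. Of 17 DNA replication genes 10 rose and 0 fell, with a median of 0.46, such as the helicase subunits Mcm3 (1.84-fold) and Mcm5 (1.75-fold). The sliding clamp Pcna rose by 0.20 on the log2 scale. With the atrial score as a covariate 10 mitosis and 5 replication genes passed, and without MCT mouse 644 10 and 7 did. Cdk1 and Pcna were lost in both settings and Mcm5 with the score.

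The regulators of the G1 phase split. Ccnd1, cyclin D1, which drives entry into the cycle, measured 7.78, 7.51 and 7.63 in the sham mice and 10.55, 10.64 and 10.22 in the MCT mice, a 7.11-fold rise (standard error 0.12, adjusted p = 7.08e-06). Cdkn1c, the inhibitor p57 of resting cells, measured 6.56, 6.64 and 6.55 in the sham mice and 5.45, 5.51 and 5.56 in the MCT mice and was 2.11-fold lower (adjusted p = 0.000603). In Cdkn1c the MCT mice lay within 0.12 units of each other, and the highest was 0.99 units below the lowest sham mouse. The inhibitor p27, Cdkn1b, fell by 0.29 on the log2 scale. Cyclins Ccnd2 and Ccnd3 rose by 0.41 and 0.52, and the transcription factor E2f1 rose by 0.83. In total 5 of 16 G1 genes rose, Cdkn1a included, and 2 fell. With the score 2 of the 16 rose and 1 fell, and Ccnd2, Ccnd3, E2f1 and Cdkn1b were lost. Without mouse 644 Ccnd3 and Cdkn1b were lost, and without sham mouse 624 3 genes rose.

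**Figure D2:**
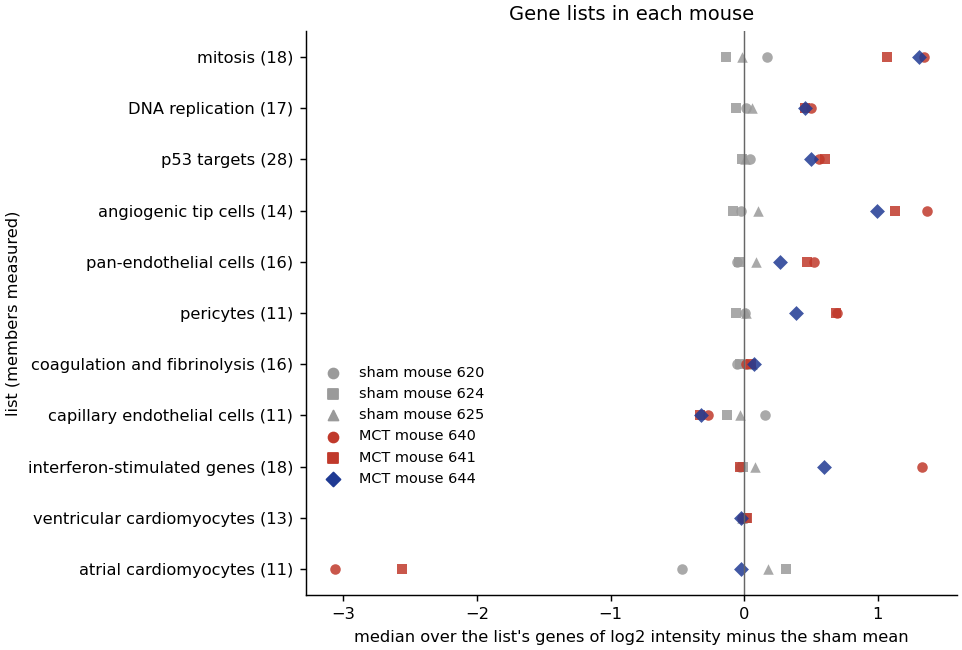
Gene lists in each of the 6 mice, with the number of measured members in brackets. Each point is the median over a list's genes of log2 intensity minus the sham mean, on the horizontal axis. The MCT mice lie above the sham mice in mitosis, DNA replication, p53 targets, tip cells, general endothelium and pericytes and below them in the capillary list, while in the atrial list mice 640 and 641 are low and mouse 644 lies with the sham mice.

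Several of the largest rises belong to secreted and surface proteins, enzymes of lipids and inhibitors of proteases. Thbs1, the matricellular thrombospondin that restrains vessel growth and activates TGF-beta, measured 5.12, 4.96 and 5.20 in the sham mice and 8.49, 8.09 and 8.31 in the MCT mice, and mouse 641 was the lowest MCT mouse. Ch25h, which makes an oxysterol from cholesterol, measured 3.94, 4.36 and 4.48 in the sham mice and 7.65, 6.93 and 6.99 in the MCT mice and rose 7.63-fold (adjusted p = 0.000445). Its product is known to act on lipid sensing, and of the other genes of sterol synthesis and efflux the exporter Abcg1 rose 1.86-fold and Mylip, the ligase of the lipoprotein receptor, fell by 0.51, among 15 measured. Ltc4s, leukotriene synthase, measured 5.01, 4.43 and 4.68 in the sham mice and 7.0, 6.99 and 6.65 in the MCT mice and rose 4.51-fold (adjusted p = 0.000132). Serpina3n, a protease inhibitor of the acute phase, measured 5.68, 5.14 and 5.77 in the sham mice and 7.24, 7.10 and 7.62 in the MCT mice and rose 3.46-fold. Unlike most of the large rises, it was highest in mouse 644. Lxn, the carboxypeptidase inhibitor latexin, rose 4.03-fold, and Cd109, a surface protein that binds TGF-beta, rose 4.31-fold. Abcg1 (adjusted p = 0.172) and Mylip (adjusted p = 0.158) were lost with the score, and Mylip also without mouse 644.

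Signalling and developmental genes completed the list. Rgs16, which shortens signalling by G proteins, measured 4.71, 4.86 and 4.60 in the sham mice and 7.05, 7.26 and 6.89 in the MCT mice and rose 5.08-fold (adjusted p = 8.24e-05). Its relatives Rgs4, Rgs5 and Rgs12 rose 1.60-, 1.60- and 1.95-fold, which made 4 of 14 RGS genes. Meox1, a homeobox factor of activated fibroblasts, measured 5.50, 5.52 and 5.58 in the sham mice and 7.74, 7.68 and 7.56 in the MCT mice, a 4.37-fold rise (adjusted p = 7.08e-06). The sham mice spanned 0.08 and the MCT mice 0.18 units in this gene. Mest, an imprinted gene of the embryonic mesoderm, rose 3.44-fold, Scn3b, a sodium channel subunit, 3.91-fold, and Lrrn1, a leucine-rich surface protein known from neurons, 3.56-fold. All 25 largest rises passed with the atrial score as a covariate and without each mouse in turn, and with the covariate their log2 fold changes were a median of 0.967 times those without it. Ccna2 was closest to the threshold (adjusted p = 0.0499). Rgs5 and Rgs12 were lost with the score, which left 2 RGS genes.

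Genes of blood clotting and its removal included 6 that rose and 0 that fell of 16. Anxa2, the annexin that assembles plasmin on cell surfaces, measured 7.04, 6.99 and 7.05 in the sham mice and 8.50, 8.59 and 8.44 in the MCT mice, a 2.80-fold rise (adjusted p = 4.41e-05). The plasminogen activators Plau and Plat rose 2.90- and 2.03-fold, the anticoagulant Pros1 1.66-fold and the protein C receptor Procr 1.53-fold. The list's median was 0.02, so the rises were of single members. Of 18 targets of YAP and the serum response factor 5 rose, all genes of the actin cytoskeleton: Tpm4 (2.21-fold), Tagln2 (2.12-fold), Flna (2.02-fold), Actb (1.61-fold) and Actg1 (1.54-fold). With the score 4 of the 16 clotting genes and 5 of the 18 YAP and serum response targets passed, and Procr was lost.

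The 25 largest falls were smaller, from -2.37 to -0.71 on the log2 scale, and capillary genes led them. Timp4, a protease inhibitor of capillary endothelium, measured 7.03, 6.35 and 6.06 in the sham mice and 4.17, 3.83 and 4.32 in the MCT mice. Car4, the carbonic anhydrase on the surface of capillaries, measured 7.88, 7.31 and 7.63 in the sham mice and 5.63, 5.27 and 5.86 in the MCT mice and was 4.06-fold lower (standard error 0.19, adjusted p = 0.000464). Aqp1, the water channel of capillaries, measured 9.44, 9.51 and 8.77 in the sham mice and 7.80, 7.17 and 7.98 in the MCT mice and was 3.01-fold lower (adjusted p = 0.00735). The choice of the largest falls fixes that the groups were separate in all 3 genes, and the gaps were 1.75, 1.45 and 0.79 units. Of 11 capillary genes 5 fell, these 3 with Rgcc and Tcf15, and 2 rose, the lipase anchor Gpihbp1 (1.57-fold) and the homeobox factor Meox2 (1.73-fold), with a list median of -0.40. With the atrial score as a covariate Timp4 and Car4 passed and Aqp1 did not (adjusted p = 0.0109, 0.00772 and 0.0823), and 3 of the 11 passed as lower and 0 as higher. Tcf15, Gpihbp1 and Meox2 were lost as well. The 2 rises of the list were also lost without sham mouse 625, MCT mouse 640 or MCT mouse 641.

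**Figure D3:**
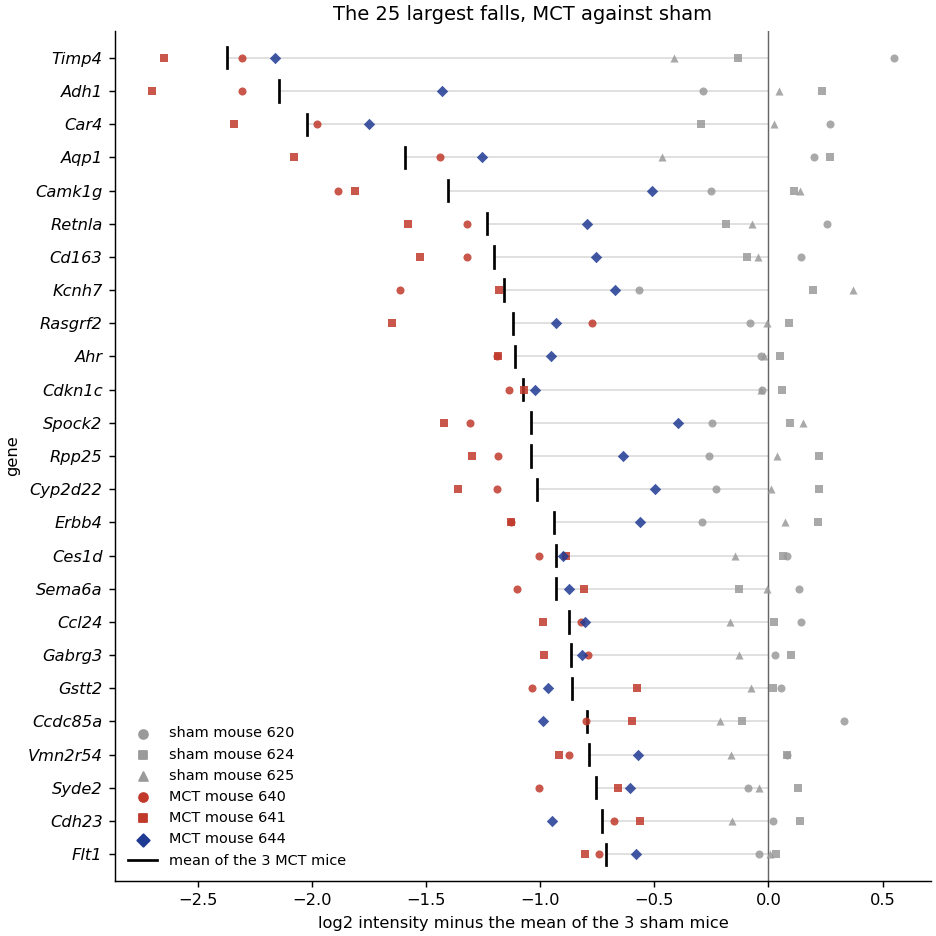
The 25 largest falls in MCT against sham mice, by gene. Each point is 1 mouse, on the horizontal axis as log2 intensity minus the mean of the 3 sham mice, and the black bar is the mean of the 3 MCT mice. Mouse 644 is the MCT mouse nearest to the sham mice in 18 of the 25 genes, as in Adh1, Camk1g and Spock2.

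Macrophage genes changed in opposite directions. Cd163, the haemoglobin scavenger receptor of resident macrophages, measured 6.34, 6.10 and 6.15 in the sham mice and 4.88, 4.67 and 5.44 in the MCT mice and was 2.30-fold lower (adjusted p = 0.00948). Retnla, a secreted product of alternatively activated macrophages, measured 4.13, 3.68 and 3.80 in the sham mice and 2.55, 2.29 and 3.07 in the MCT mice and was 2.35-fold lower (adjusted p = 0.00884). Ccl24, a chemokine of the same cells that draws eosinophils, measured 5.37, 5.25 and 5.06 in the sham mice and 4.41, 4.24 and 4.42 in the MCT mice and was 1.83-fold lower (adjusted p = 0.00347). The choice of the largest falls fixes that no MCT mouse reached a sham mouse in these genes. Mouse 644 was the MCT mouse nearest to the sham mice in each. Retnla lay below the lowest array median, 4.77, in every sham and MCT mouse, where values are closer to background. The engulfment receptor Mertk, the lysosomal protein Cd68 and the complement chain C1qb rose 1.61-, 1.63- and 1.57-fold, so that 3 of 16 macrophage genes rose and 1 fell. The chemokines Ccl9, Ccl6 and Ccl8 rose 1.87-, 1.91- and 2.93-fold, among 23 chemokines and receptors. The general markers Adgre1 and Csf1r had log2 fold changes of 0.65 and -0.28 and were not called. With the score 1 macrophage gene rose and 1 fell, and Cd68 (adjusted p = 0.159), C1qb (adjusted p = 0.192), Retnla and Ccl8 were lost. Without mouse 644 Cd68, C1qb and Ccl8 were lost too, and 1 macrophage gene also rose without sham mouse 624 or MCT mouse 640.

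Genes that handle small molecules also fell. Adh1, the alcohol dehydrogenase that oxidises retinol, measured 8.10, 8.62 and 8.43 in the sham mice and 6.08, 5.69 and 6.95 in the MCT mice and was 4.42-fold lower (standard error 0.37, adjusted p = 0.00984). It was the called member among 18 genes of retinoid metabolism, whose median was -0.05. Ahr, the receptor for dioxins and other aromatic compounds, measured 6.72, 6.80 and 6.73 in the sham mice and 5.56, 5.57 and 5.80 in the MCT mice and was 2.16-fold lower (adjusted p = 0.00029). The cytochrome Cyp2d22, the carboxylesterase Ces1d and the glutathione transferase Gstt2 were 2.02-, 1.91- and 1.81-fold lower. Among 19 genes of the NRF2 and xenobiotic response 2 rose, the haem oxygenase Hmox1 (1.77-fold) and Ephx1 (1.44-fold), and 2 fell, Ces1d and Gstm1. Erbb4, the neuregulin receptor of cardiomyocytes, measured 7.43, 7.94 and 7.80 in the sham mice and 6.60, 6.60 and 7.16 in the MCT mice and was 1.92-fold lower (adjusted p = 0.0175). Adh1, Cyp2d22, Ces1d, Ephx1, Gstm1 and Erbb4 were lost with the score. Without mouse 644 Ces1d and Gstm1 were lost, and without sham mouse 620, sham mouse 624, MCT mouse 640 or MCT mouse 641 1 gene of the NRF2 list rose and 0 fell.

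The remaining falls were of genes with varied roles. The kinase Camk1g was 2.65-fold lower, the potassium channel Kcnh7 2.23-fold, the Ras exchange factor Rasgrf2 2.17-fold, the proteoglycan Spock2 2.06-fold, the RNase P subunit Rpp25 2.05-fold and the guidance molecule Sema6a 1.90-fold. Between 1.66- and 1.82-fold lower were the receptor subunit Gabrg3, Ccdc85a, the vomeronasal receptor Vmn2r54, Syde2 and the cadherin Cdh23. Gabrg3 and Vmn2r54 lay below the lowest array median, 4.77, in every sham and MCT mouse, where values are closer to background. Camk1g measured 5.02, 5.38 and 5.41 in the sham mice and 3.38, 3.46 and 4.76 in the MCT mice, so that mouse 644 lay 0.26 units below the nearest sham mouse and well above the other two MCT mice. Camk1g, Kcnh7, Rasgrf2, Spock2, Ccdc85a, Vmn2r54 and Syde2 were lost with the score, and Ccdc85a also without mouse 644.

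Many falls lost their call with the atrial score. Of the 25, 12 passed with it as a covariate. Over all 25, the log2 fold changes were then a median of 0.819 times those without it. Those that passed were Timp4, Car4, Cd163, Ahr, Cdkn1c, Rpp25, Sema6a, Gabrg3, Gstt2, Cdh23, Flt1 and Ccl24, the last at an adjusted p of 0.0499. The adjusted p of Camk1g went from 0.0358 to 0.202, and that of Kcnh7 from 0.0483 to 0.328. A lost call did not always mean a smaller fall. Ces1d went from -0.93 (standard error 0.19) to -1.02 (standard error 0.26) with the score. Ccdc85a went from -0.79 to -0.94, and both lost their call. Leaving out 1 mouse lost calls as well: 17 of the 25 falls passed without MCT mouse 640, 17 without mouse 641, 23 without mouse 644, and 16 without sham mouse 624.

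The falls of largest size were not called. Of 69 genes lower by over 1 unit on average 55 were not called, and in 51 of these MCT mouse 644 was at or above the lowest sham mouse, while mice 640 and 641 were below it in all 55. The atrial growth factor Bmp10 had the largest mean difference, -5.48, with 10.95, 11.94 and 12.00 in the sham mice and 3.48, 3.72 and 11.25 in the MCT mice (adjusted p = 0.169). The atrial light chain Myl4 had a difference of -4.30 and the atrial peptide Nppa, which ventricles also make under load, one of -1.88. Nppa measured 12.86, 13.03 and 13.07 in the sham mice and 9.93, 10.43 and 12.96 in the MCT mice. Of 11 atrial markers 0 were called in limma at the adjusted threshold and 8 had a lower level with an unadjusted p under 0.05, and in 10 of them mouse 644 reached the sham range. Without mouse 644, 9 of the 11 were called lower. Whether the dissected pieces held different amounts of atrium cannot be told apart here from a change in these genes in mice 640 and 641, and its part in the falls above was not tested beyond the covariate.

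**Figure D4:**
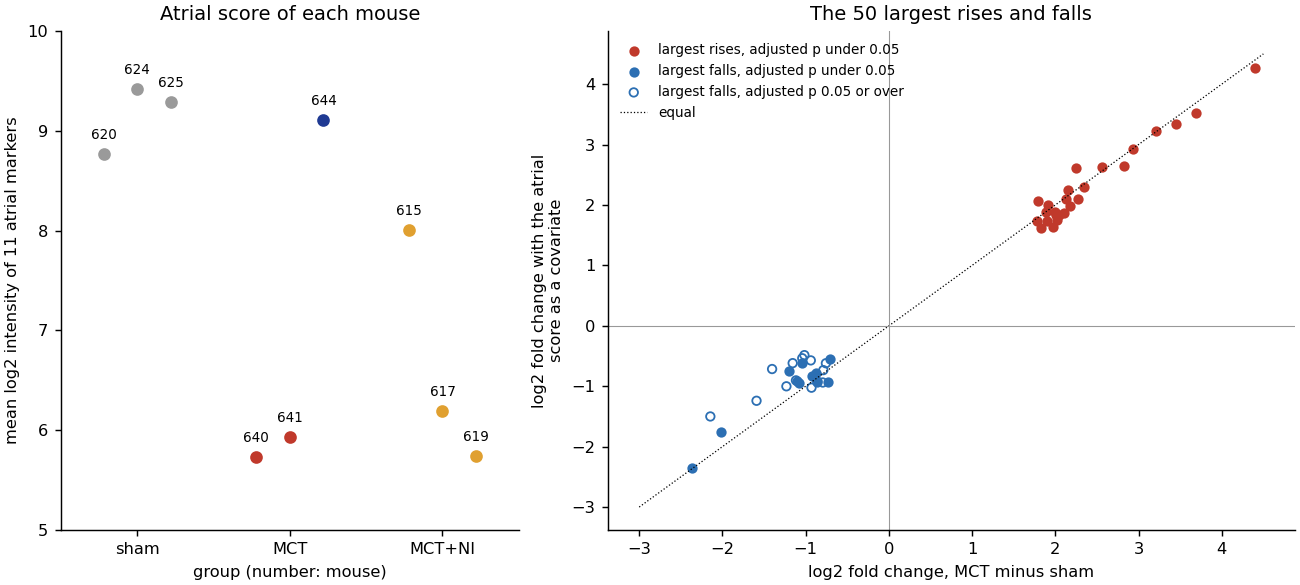
Left, the mean log2 intensity of 11 atrial markers in each of the 9 mice by group, on a vertical axis from 5 to 10. Right, the log2 fold change of the 25 largest rises and 25 largest falls without (horizontal) and with (vertical) this score as a covariate, where open points did not pass with it. The rises lie near the dotted line of equality and stay filled, while 13 of the falls are open and several lie nearer to 0.

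Fibroblast genes that rose were mainly those of the matrix. Of 14 genes 6 rose, among them the collagen Col15a1 (2.24-fold) and the laminin Lamc1 (1.61-fold), whereas the receptor Pdgfra and the proteoglycan Dcn had log2 fold changes of -0.19 and 0.03 and were not called. Of 14 genes of activated fibroblasts 4 rose, with Meox1 the foremost, and Cthrc1 (-0.07) was not called. Smooth muscle genes rose little: 3 of 12, led in p by Smtn (1.17-fold), and Acta2 was 1.28-fold its sham level (adjusted p = 0.0566). The epicardial factor Wt1, which is also made by growing endothelium, rose 1.96-fold (adjusted p = 0.00172). Its fellow mesothelial markers Upk3b and Msln were not called, and Upk3b measured 6.43, 6.64 and 6.05 in the sham mice and 4.20, 5.10 and 7.17 in the MCT mice, with mice 640 and 641 low and mouse 644 highest. With the score 5 fibroblast, 3 activated fibroblast and 0 smooth muscle genes were higher, and the call of Smtn (adjusted p = 0.0711) was lost. Without mouse 641 1 smooth muscle gene was called.

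Blood and immune cell lists held few calls. Of 9 monocyte genes 2 rose, Ace, which endothelium also makes, and the integrin Itgam (1.68-fold, adjusted p = 0.029). Ccr2, Plac8 and Chil3 were not called. The call of Itgam was lost with the score and without MCT mouse 644. Of 10 T cell genes 1 rose, Cd4 (1.76-fold), while Cd3e, Cd3d and Cd3g were not called. Of 9 B cell and 10 natural killer cell genes 0 were called in limma, and 0 and 1 had an unadjusted p under 0.05. Of 11 neutrophil genes 1 rose, Lcn2 (1.79-fold), an acute phase protein that other cells make too, and S100a8 and S100a9 were not called. Lists of platelets, red blood cells, adipocytes and skeletal muscle fibres also held 0 calls, with 3, 0, 1 and 1 genes at an unadjusted p under 0.05. Interferon-stimulated genes had a median of 0.56 with 0 of 18 called and 5 higher at an unadjusted p under 0.05. The medians of the single MCT mice were 1.33 in mouse 640, -0.03 in mouse 641 and 0.60 in mouse 644, and 16 of the 18 genes were highest in mouse 640. Cd4 was lost with the score and without sham mouse 624, sham mouse 625, MCT mouse 640 or MCT mouse 644.

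**Figure D5:**
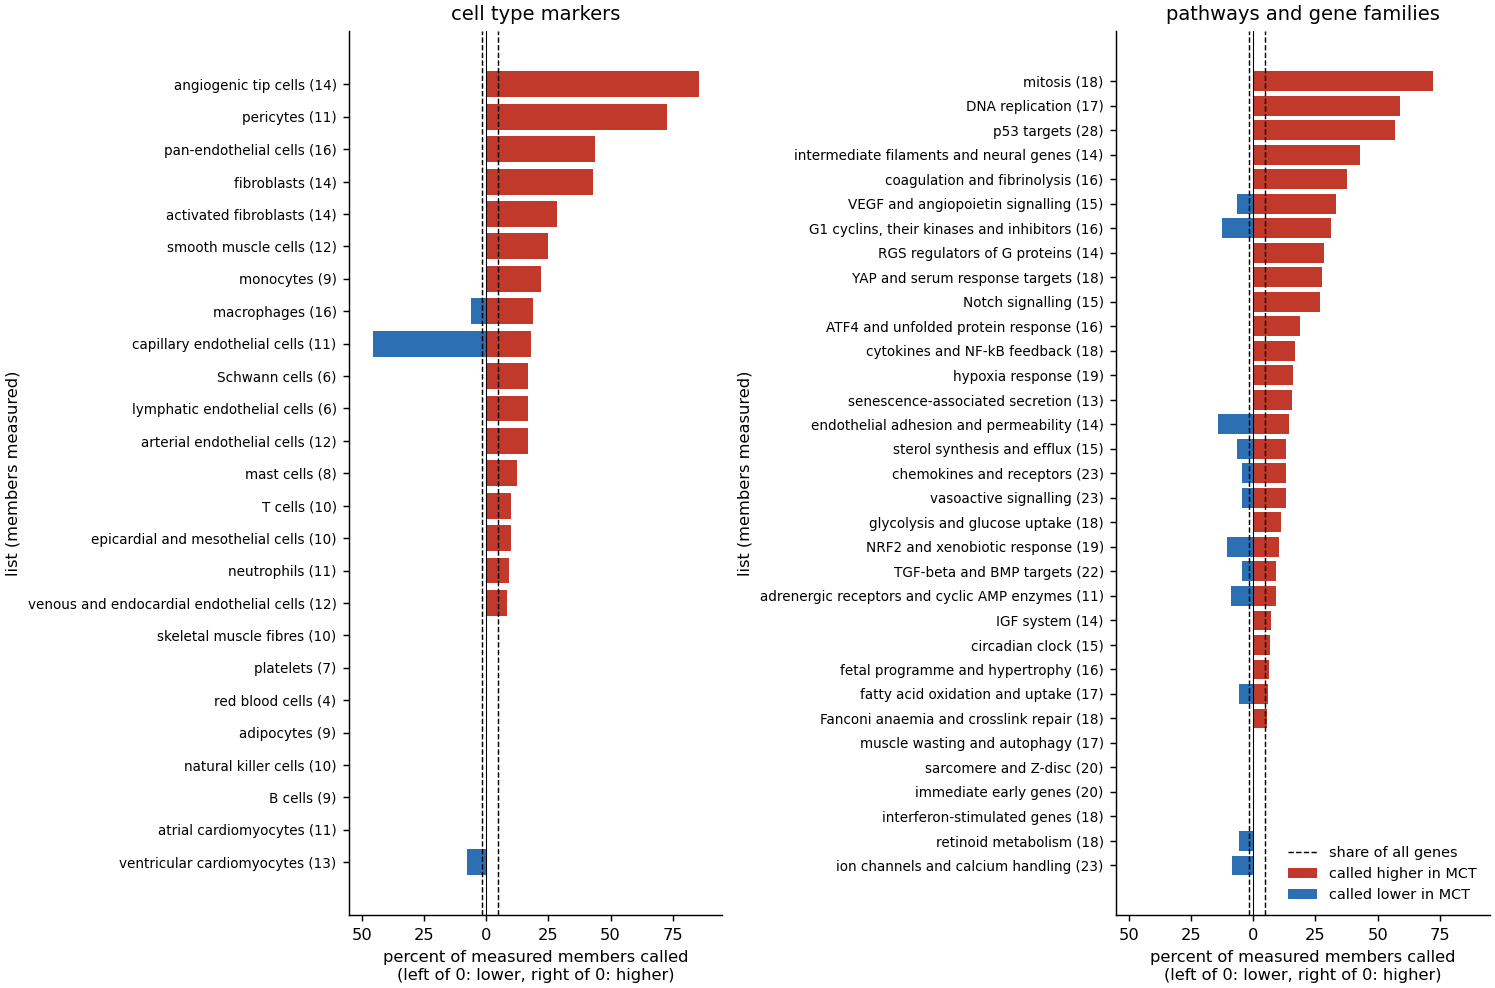
Share of each list's measured members called higher (right of 0) or lower (left of 0) in MCT mice, on the horizontal axis in percent, with the number of members in brackets. Dashed lines are the shares of all genes, 4.65% higher and 1.61% lower. Tip cells, pericytes, mitosis, DNA replication and p53 targets are the lists with more members higher than not, and the capillary list has the largest share lower.

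The contractile and electrical genes of cardiomyocytes had small median changes, with a larger share than over all genes lying below the sham mice. Of 20 sarcomere and Z-disc genes 0 were called, with 2 below the sham level by an unadjusted p under 0.05 and a median of -0.03. Of 23 genes of ion channels and calcium handling 2 fell, Ryr2 and the potassium channel Kcnd3 (by 0.42 on the log2 scale). Of 16 genes of the fetal programme and hypertrophy 1 rose, the ubiquitin hydrolase Uchl1 (1.74-fold). Of 20 immediate early genes 0 were called, and 4 were higher at an unadjusted p under 0.05. The circadian clock genes had a median of -0.53, with 1 of 15 called, Bhlhe40 (1.31-fold). Ryr2, Kcnd3 and Bhlhe40 were lost with the score, Bhlhe40 also when any 1 mouse other than sham mouse 625 was left out, and without mouse 644 5 genes of the ion channel list fell and 1 rose.

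The leading genes are given beside the MCT + NI mice, which share the sham mice as reference, so the values of both MCT groups against sham are not independent. Prnd measured 10.08, 9.69 and 9.83 in MCT + NI mice 615, 617 and 619, Apln 10.42, 10.15 and 10.42, Cdkn1a 9.40, 9.51 and 9.66 and Mki67 7.13, 5.84 and 6.67. All 3 of these mice were above every sham mouse in each of the 25 largest rises. Timp4 measured 4.43, 4.84 and 4.53 and Car4 5.67, 5.28 and 5.30. In 24 of the 25 largest falls all 3 MCT + NI mice were below every sham mouse. Both sets of 25 were chosen with the MCT mice beyond these same sham mice. Among all called genes, the 3 MCT + NI mice lay on the MCT side of every sham mouse in 858 of 876 higher genes. Among the lower genes this held in 288 of 303. These genes too were called against the same sham mice. The share over all genes was not counted, so the counts are no measure of replication. The atrial scores of MCT + NI mice 615, 617 and 619 were 8.01, 6.19 and 5.74, all below those of the sham mice. The part of the score in these falls was not tested.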

How the data were processed

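Total RNA of the right ventricle was measured on Affymetrix mouse gene arrays, 1 per mouse, in 3 sham, 3 MCT and 3 MCT + NI mice. The authors processed the scans by robust multi-array analysis (RMA, version not given in the sources used here) and deposited log2 intensity values, which were used as they are. RMA makes the distributions of the arrays alike, so a shift of all genes in one direction would be removed. Of 35556 rows, 12457 carried no gene name in the annotation and 1881 carried several. The other 21218 were reduced to 18820 genes by taking the probe set with the highest mean over the 9 arrays. The methods describe probe sets redefined by gene, but the rows carry the manufacturer's numbers. The methods and the labels differ in the start of the diets (1 or 2 weeks before the injections).

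A linear model with a mean for each group was fitted to the 9 arrays in limma 3.58.1 (R 4.3.3) with an intensity trend, so that the MCT + NI mice added to the estimate of spread, with 6 residual degrees of freedom. The contrast was MCT minus sham, with Benjamini-Hochberg adjustment over all genes at 0.05. Each mouse is a separate animal. Precision is limited by their number. The procedure was tested on simulated data. Named were the 25 largest rises and 25 largest falls among called genes without overlap of the groups, without predicted genes and clones, up to 4 called members per list, 3 defining markers per cell type and every atrial marker. Other list members in the text, such as Ccng1, Fas, Col4a2 and Kcne3, were named after their values were seen. The 58 lists (25 of cell types and 33 of pathways, 758 distinct genes measured) were written from general knowledge, and both the comparison and the lists were chosen with earlier results of these data known. Lists are described by counts and medians without a test. List genes that have no probe set of their own, or that are absent from the table used, are not analysed here. Alternatives were the 6 arrays alone, no trend, array weights, the mean over probe sets of a gene, genes at or above the median level, each array's median set to 0, the atrial score as a covariate, leaving out each mouse, and unadjusted thresholds. Start-site windows were taken from RefSeq (GRCm38.p6), and 14749 of the genes matched by symbol. Figures were drawn with matplotlib 3.10.9 in Python 3.11.15.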

Additional observations from a re-analysis of the deposited data

Results flagged for a closer look

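A pair of kinds of array rows stood outside the comparison because no single gene could be named for them. Among the 12457 rows with no gene in the annotation used, 98 (0.787%) passed an adjusted p under 0.05 in limma, 62 of them with higher and 36 with lower values in MCT mice. Their largest rise was 1.95 on the log2 scale and their largest fall -3.53, which is a larger fall than that of any called gene. Among the 1881 rows shared by several genes, 47 (2.5%) passed, 30 higher and 17 lower, with a largest rise of 1.63 and a largest fall of -0.66. For the 21218 rows with 1 gene the share in the same fit was 4.02%. Both kinds are listed because they carry a signal that the gene-level results do not use.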

How the results depend on the processing

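No called gene among those named by the rule changed direction under any alternative. The number of called genes depended on the setting. With the atrial score as a covariate 495 genes passed, 401 higher and 94 lower, and 438 of the 1179 were among them. Leaving out 1 mouse gave 676 to 1196 genes in all, 553 to 887 higher and 123 to 309 lower. The smallest numbers came without MCT mouse 640 (676, 553 and 123), and without MCT mouse 641 they were 767, 624 and 143. Without sham mice 624 and 625, 191 and 198 genes were lower. With the sham and MCT arrays alone 867 genes passed and 166 were lower, without the intensity trend 187, and with each array's median set to 0 711. At an unadjusted p under 0.01, 1851 genes passed, 1218 higher and 633 lower, and at an unadjusted p under 0.05 3714, 1994 higher and 1720 lower. All 25 largest rises passed in every alternative that tested them, since 5 of them lie below the median level and were not tested under that filter. Of the 25 largest falls 11 did, and 15 of the 25 passed when only genes at or above the median level were used. The cause of these changes was not tested. Values below the median level are closer to background, and probe sets of a gene can disagree, as in Top2a. No paired analysis was possible because the mouse numbers are not shared between groups.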

Other observations

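Vessel tone and barrier genes held rises and falls. Ace, the angiotensin-converting enzyme of endothelium, measured 7.25, 6.77 and 6.97 in the sham mice and 7.83, 7.78 and 7.78 in the MCT mice and rose 1.74-fold (adjusted p = 0.00482). Mas1, the receptor on the opposing arm of the same system, fell by 0.59 on the log2 scale (adjusted p = 0.00372). Of 23 vasoactive genes 3 rose, Ace with Apln and Aplnr, and 1 fell. Among 14 genes of endothelial adhesion and permeability, Icam2 and the caveolar protein Cav1 (1.47-fold) rose, while the junction proteins Jam2 and Ocln fell by 0.27 and 0.67. Bmp6, a ligand that endothelium secretes, fell by 0.45. Aplnr, Jam2, Ocln and Bmp6 were not called with the atrial score as a covariate. Jam2 and Ocln were also not called without MCT mouse 644.

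Stress pathways other than that of p53 held fewer calls. Of 16 genes of the ATF4 and unfolded protein response 3 rose, the amino acid enzymes Asns (1.60-fold) and Psat1 (1.55-fold) with Sesn2, which is also a p53 target. Of 19 hypoxia genes 3 rose, Ankrd37 (1.57-fold), the prolyl hydroxylase Egln3 (1.40-fold) and lactate dehydrogenase Ldha (1.13-fold). Of 18 cytokine and NF-kB genes 3 rose, the macrophage growth factor Csf1 (1.37-fold), Relb (1.53-fold) and Lif (1.46-fold). Kit, a receptor of mast cells and of some endothelial and progenitor cells, rose 1.56-fold, whereas the mast cell proteases Cpa3, Mcpt4 and Cma1 had log2 fold changes of -0.53, -0.35 and -0.31 and were not called. Of predicted genes and clones 14 were called without overlap of the groups, and the number tested was not counted, so no share is given. Using the atrial score as a covariate, 1 gene of the ATF4 list, 0 hypoxia genes (adjusted p = 0.144, 0.169 and 0.0877 for Ankrd37, Egln3 and Ldha) and 1 cytokine gene passed, and Asns, Psat1, Csf1 and Lif were not called. Without MCT mouse 640 the ATF4, hypoxia and cytokine lists held 1 rise each, and without mouse 644 Egln3, Relb and Lif were not called.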
